A study of Homo sapiens with 9 samples.

Results

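The genes described here are the expressed solute carrier (SLC) genes of A549, a human lung adenocarcinoma cell line, after depletion of Cyclin K, the cyclin partner of the kinase Cdk12. Members were chosen by their name (SLC, a family number, A and a member number) and selected on a mean FPKM of at least 1 over all 9 libraries, where FPKM counts sequenced fragments relative to gene length and library depth. These criteria kept 165 of 286 solute carrier rows, and 121 rows lay below the threshold. For 48 h the cells carried siCyclin K#1, siCyclin K#2 or a scrambled siRNA, with 3 libraries in each group, and the labels name no other treatment. The labels do not say whether the libraries of a group came from separate cultures, so that p-values measure the spread between these libraries, which may be technical. All libraries come from 1 cell line. Estimated depth was 31333749 to 33767961 reads per library. CCNK, the gene for Cyclin K, was at 6.90 to 7.10 FPKM with scrambled siRNA, at 0.720 to 0.891 under siCyclin K#1 and at 0.802 to 0.920 under siCyclin K#2. Of the epithelial markers KRT18 and KRT8 were abundant, whereas KRT7, KRT19 and EPCAM did not pass the filter on low values, nor did 6 of 9 alveolar type II markers. The endothelial markers summed to at most 0.0445 FPKM in any library and the leukocyte markers to at most 1.03 FPKM. The fibroblast markers, mainly COL1A1, summed to 2.29 to 2.72 FPKM with scrambled siRNA, 15.5 to 17.4 under siCyclin K#1 and 3.55 to 3.74 under siCyclin K#2, and their part in the results below was not tested.

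Solute carriers are membrane proteins that move nutrients, ions, metabolites and metals across the plasma membrane and the membranes of organelles, either down a gradient or coupled to another solute. They are grouped in numbered families by sequence, and a family usually shares a class of substrate. In epithelial and tumour cells they set the uptake of glucose and amino acids, the export of lactate, cell volume, pH and the metal content of the cytosol. In bulk RNA, fewer cells that express a gene and less RNA per cell cannot be told apart.

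The members' levels spanned a wide range. The median scrambled FPKM of the 165 members was 4.08, and 45 members exceeded 10. The 3 members above 100 were the ADP/ATP carrier SLC25A5 (mean 374 FPKM), the large neutral amino acid transporter SLC7A5 (111) and the glutamine transporter SLC1A5 (109). Next came the ADP/ATP carrier SLC25A6 at 63.2, the mitochondrial phosphate carrier SLC25A3 at 59.5, the neutral amino acid transporter SLC38A2 at 56.97, the taurine transporter SLC6A6 at 43.5, the mitochondrial dicarboxylate carrier SLC25A10 at 43.1 and the phosphate transporter SLC20A1 at 39.4. SLC25A5 and SLC25A6 are close paralogs whose reads may be divided between them, and the values of SLC25A10 are shared with MRPL12. The members belong to 41 families, 11 of which have a single member here and 11 of which have at least 5. Just above the threshold were SLC10A4, SLC39A4 and SLC19A3 with means over all libraries of 1.06, 1.08 and 1.10 FPKM, and just below it SLC31A2, SLC25A21 and SLC8A1 with 0.984, 0.964 and 0.907.

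To ask which carriers changed with loss of Cyclin K, the 6 siCyclin K libraries were compared with the 3 scrambled libraries with limma on log2(FPKM + 0.1), so that each fold change is on that scale, with Benjamini-Hochberg adjustment over all 21048 genes tested. All 165 members passed the filter of this test. At an adjusted p under 0.05, 37 members (22.4%) were higher and 26 (15.8%) lower, while 102 were not called. With the siRNAs as separate groups in the fit, the same comparison called 56 higher and 47 lower. The shares over all genes were not counted for that fit, and those that follow belong to the fit of 2 groups. Over all genes tested 17.0% were higher and 11.5% lower, and over the 11243 tested genes whose mean FPKM was at least 1 the shares were 25.2% and 16.9%. The members' shares were therefore near those of other genes of like abundance. The median log2 difference was 0.03 over members and 0.06 over genes whose mean FPKM was at least 1, and the median size of the difference was 0.37 and 0.34. All 6 siCyclin K libraries were above all 3 scrambled libraries for 44 members and below them for 28. The share of other genes without such overlap was not counted, so these counts are only a description. A fold change over 3 with an unadjusted p under 0.01, the rule of the study's volcano plot, called a single member, SLC27A1, against 2.21% of the genes whose mean FPKM was at least 1. For 45 of the 63 called members the exact two-sided permutation test of 6 libraries against 3 gave p = 0.0119, the smallest it allows. These members were called from the same 9 libraries, so this count is a description and not further support. The mean scrambled FPKM of SLC25A42, SLC27A1, SLC19A3 and SLC9A3 was below 1, so these 4 are members through their siRNA libraries, and the rises of SLC27A1 and SLC25A42 are a description. Without scrambled replicate 2 the counts fell to 24 higher and 16 lower, and without scrambled replicate 1 to 16 lower. Of the 63 calls, 35 held whichever library was left out, and 12 were lost in 4 or more of these 9 fits. The other 16 were lost in 1 to 3 fits, each time without a scrambled library, except that SLC25A15 was also lost without siCyclin K#1 replicate 2. With members chosen by the scrambled libraries instead, 35 of 162 were higher and 27 lower. The split of the calls moved with the scaling of the libraries: 58.7% of the called members were higher with FPKM as deposited, 46.9% after median-ratio rescaling and 45.9% after quantile normalization.

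Each siRNA was then compared with scrambled siRNA. These comparisons share their 3 scrambled libraries. With siCyclin K#1, 60 members (36.4%) were higher and 46 (27.9%) lower, beside 26.8% and 18.1% of all genes tested and 36.5% and 27.8% of those whose mean FPKM was at least 1. With siCyclin K#2, 54 members (32.7%) were higher and 37 (22.4%) lower, beside 19.8% and 15.2% of all genes and 31.1% and 22.4% of the more abundant ones. The share of calls that were higher was 56.6% under siCyclin K#1, and 44.4% after median-ratio rescaling, which took the median log2 difference of all genes from 0.102 to 0.001. The fold rule called 4 members under siCyclin K#1 (SLC12A8, SLC25A42, SLC27A1 and SLC40A1), beside 4.22% of genes whose mean FPKM was at least 1, and 1 member under siCyclin K#2 (SLC4A8), beside 1.66%. The members as a class again changed about as often as other expressed genes.

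**Figure D1:**
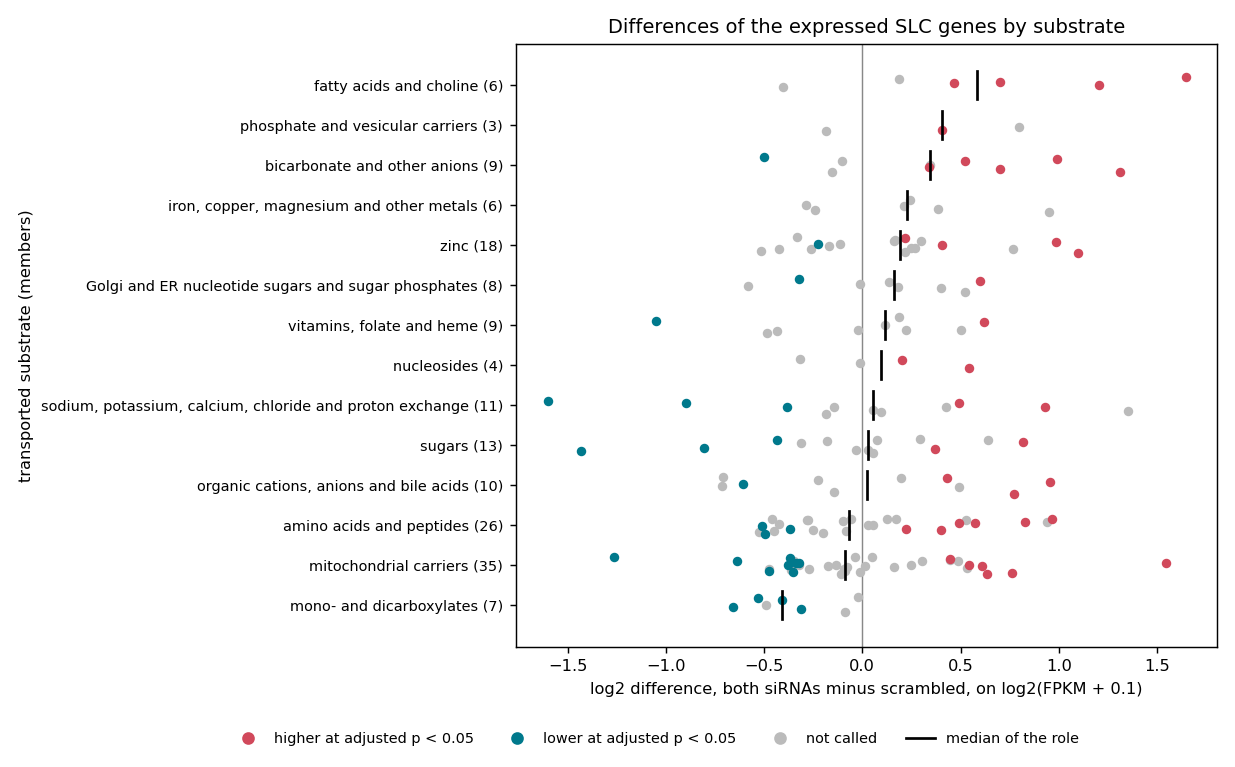
Log2 difference of both siRNAs minus scrambled for the members (horizontal axis, on log2(FPKM + 0.1)), grouped by transported substrate with the number of members in parentheses (vertical axis). Red points were higher and blue points lower at an adjusted p under 0.05, grey points were not called, and a black bar is the median of the group, which runs from -0.41 for mono- and dicarboxylates to 0.58 for fatty acids and choline.

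The substrate groups are a description, since no test was run on a group. Of the 6 members for fatty acids and choline, 4 were higher and none lower. Among these 4 are SLC27A1, a member only through its siRNA libraries, and SLC27A3, whose row is shared with INTS3. In families 4 and 26, which carry bicarbonate and other anions, 5 of 9 members were higher and 1 lower. Of 7 mono- and dicarboxylate carriers none was higher and 4 were lower. Under both other scalings these counts were the same, except that 4 anion carriers were higher after median-ratio rescaling. The remaining large groups held members of both signs, with 6 higher and 8 lower of 35 mitochondrial carriers, 6 higher and 3 lower of 26 amino acid and peptide carriers, 4 higher and 1 lower of 18 zinc carriers, and 2 higher and 3 lower of 13 sugar carriers. The 6 higher mitochondrial carriers include SLC25A42, also a member only through its siRNA libraries. After median-ratio rescaling 2 zinc carriers were higher and 2 lower, and 5 mitochondrial carriers were higher and 11 lower.

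**Figure D2:**
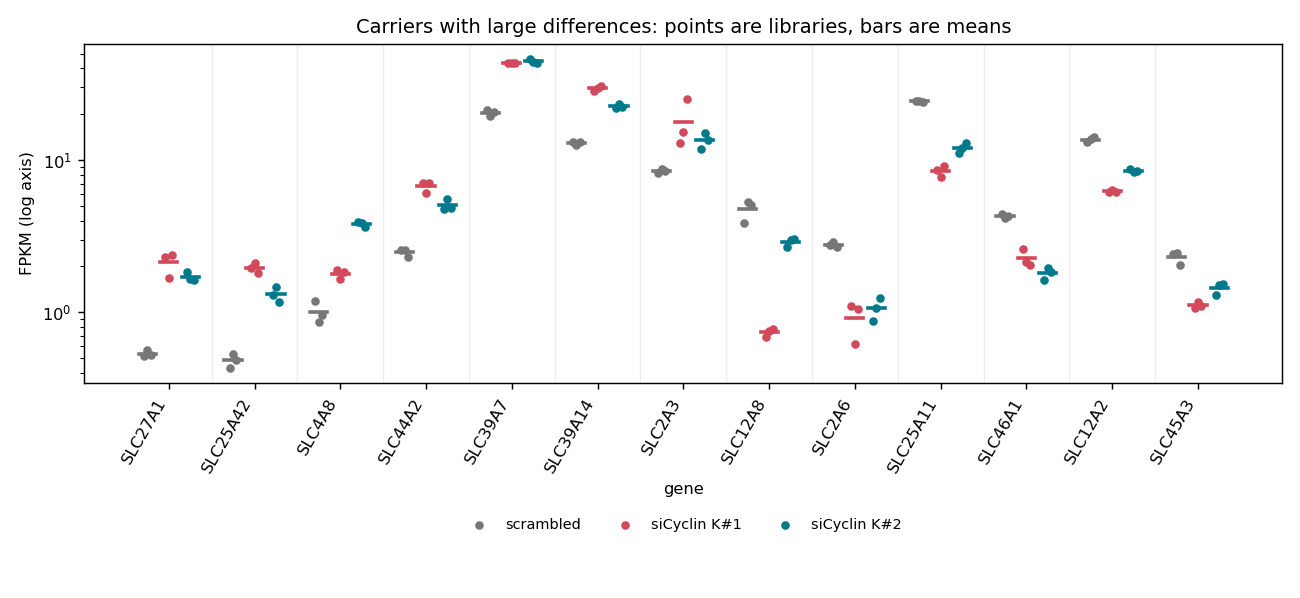
FPKM on a log axis (vertical) of 13 members with large differences (horizontal). Points are single libraries, bars are means of 3, and colours are the groups. In the first 7 genes the 6 siCyclin K libraries lie above the 3 scrambled libraries, and in the last 6 they lie below.

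Among the carriers of lipids, SLC27A1 and SLC27A4, which take up long-chain fatty acids and activate them to acyl-CoA, and SLC44A2, a choline transporter-like protein, were higher with both siRNAs. SLC27A1 reached 0.513, 0.566 and 0.523 FPKM in the scrambled, 2.301, 1.67 and 2.39 in the siCyclin K#1 and 1.83, 1.64 and 1.61 in the siCyclin K#2 libraries. The gene lies at chr19:17468769-17506168 of GRCh38 on the plus strand, and both siRNA groups were above every scrambled library, at 3.97 and 3.17 times the scrambled mean. The log2 difference over both siRNAs was 1.65. For SLC44A2 the FPKM was 2.57, 2.58 and 2.29 with scrambled siRNA, 7.09, 6.08 and 7.103 under siCyclin K#1 and 4.73, 5.53 and 4.86 under siCyclin K#2. No siCyclin K library of SLC44A2 overlapped the scrambled libraries. Over both siRNAs the log2 difference of SLC44A2 was 1.20 (standard error 0.15, adjusted p = 0.000243, limma). SLC27A4 had means of 6.81 ± 0.263, 11.6 ± 0.107 and 10.6 ± 0.424 FPKM (SD, n = 3 each) in the scrambled, siCyclin K#1 and siCyclin K#2 groups. Its log2 difference over both siRNAs was 0.70 with a standard error of 0.07 (adjusted p = 6.74e-05, limma). SLC27A3, whose values are shared with INTS3, rose from 2.33 to 3.39 and 3.16 FPKM (adjusted p = 0.00839, limma). SLC27A2, the very long-chain acyl-CoA synthetase, and the choline transporter SLC44A1 did not pass the test (log2 differences 0.19 and -0.40).

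The bicarbonate transporters of family 4 set intracellular pH. SLC4A8 reached 1.18, 0.866 and 0.957 FPKM in the scrambled, 1.88, 1.64 and 1.83 in the siCyclin K#1 and 3.93, 3.87 and 3.64 in the siCyclin K#2 libraries. SLC4A8, a sodium-driven chloride-bicarbonate exchanger, was higher under siCyclin K#2 than under siCyclin K#1, and all 6 siRNA libraries were above the scrambled ones. Over both siRNAs the log2 difference of SLC4A8 was 1.31 (standard error 0.31, adjusted p = 0.0112, limma). For SLC4A8 the log2 difference of the siRNAs, K#1 minus K#2, came to -1.06 with a standard error of 0.11 (adjusted p = 0.000186, limma). SLC4A4 had means of 3.17 ± 0.262, 4.61 ± 0.326 and 5.87 ± 0.0869 FPKM (SD, n = 3 each) in the scrambled, siCyclin K#1 and siCyclin K#2 groups. SLC4A4 is the electrogenic sodium bicarbonate cotransporter, and all 6 of its siRNA libraries were higher than the scrambled ones (adjusted p = 0.00241, limma). The values of SLC4A5 are shared with DCTN1, a dynactin subunit, and cannot be assigned to either; this row rose from 6.33 to 13.9 and 11.6 FPKM (adjusted p = 8.97e-05). SLC4A2, the anion exchanger with the highest level in the family, had means of 27.2, 30.4 and 39.1 FPKM with scrambled siRNA, siCyclin K#1 and siCyclin K#2, with a log2 difference at the edge of the threshold (0.34, adjusted p = 0.0498) that 7 of the 9 fits without 1 library lost. For SLC4A7 the 6 siRNA libraries were also above the scrambled ones, with a log2 difference over both siRNAs of 0.34 that missed the threshold (adjusted p = 0.0611). Each siRNA alone was called higher for SLC4A7 (adjusted p = 0.032 for siCyclin K#1 and 3.86e-05 for siCyclin K#2, limma). The siCyclin K#1 call was lost under both other scalings and without any 1 of the scrambled libraries. SLC4A11 did not pass over both siRNAs (log2 difference -0.10). In family 26, the sulfate transporter SLC26A2 rose from 11.01 to 18.5 and 13.6 FPKM, whereas SLC26A6, an exchanger of chloride, oxalate and bicarbonate, fell from 2.84 to 2.19 and 1.76 (adjusted p = 0.0178 and 0.0148).

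The cation-chloride cotransporters of family 12 divide into sodium-dependent importers and potassium-dependent exporters of chloride, and they regulate cell volume. SLC12A2 was at 13.1, 13.7 and 14.1 FPKM in the scrambled group, 6.16, 6.32 and 6.16 under siCyclin K#1 and 8.66, 8.298 and 8.44 under siCyclin K#2. SLC12A2, the NKCC1 importer, was lower in every siRNA library than in every scrambled library, with the siCyclin K#1 group lowest. Over both siRNAs the log2 difference of SLC12A2 was -0.90 (standard error 0.14, adjusted p = 0.000872, limma). The exporter SLC12A4 (KCC1) had a log2 difference of 0.42 that did not pass over both siRNAs (adjusted p = 0.077), and SLC12A7 (KCC4) fell from 13.2 to 10.2 and 10.1 FPKM (adjusted p = 0.00214). For SLC12A8 the FPKM was 3.85, 5.33 and 5.06 with scrambled siRNA, 0.6901, 0.7501 and 0.779 under siCyclin K#1 and 2.67, 2.96 and 3.02 under siCyclin K#2. SLC12A8, a member of uncertain substrate whose row also holds RNU6-230P, had its lowest level under siCyclin K#1, at 15.6% of the scrambled mean. Against scrambled, its log2 difference was -2.52 under siCyclin K#1 and -0.69 under siCyclin K#2 (adjusted p = 7.58e-07 and 0.00267, limma), and the call over both siRNAs was lost in 6 of 9 fits without 1 library. Of the kinases and ubiquitin ligases known to act on these and other carriers, 4 of 10 tested were higher and 1 lower: OXSR1, a kinase that phosphorylates cation-chloride cotransporters, rose with a log2 difference of 0.66 and the ligase NEDD4L with 0.84, while the kinase SGK1 fell with -0.80 (adjusted p = 5.21e-05, 7.12e-05 and 0.0469, limma). Of 7 sodium-potassium pump genes tested, 3 were higher and none lower over both siRNAs, but FXYD1 and FXYD7 share 1 row with means of only 0.0193, 0.123 and 0.0881 FPKM in the scrambled, siCyclin K#1 and siCyclin K#2 groups. The other was the beta subunit ATP1B3. Beside the counts of these lists, 17.0% of all genes tested were higher over both siRNAs and 11.5% lower, and no test was run on the lists.

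Zinc is moved into the cytosol by the SLC39 (ZIP) family and out of it by the SLC30 (ZnT) family. Levels of SLC39A7 were 21.4, 19.5 and 20.6 FPKM (scrambled), 43.4, 43.4 and 43.2 (siCyclin K#1) and 45.8, 44.3 and 43.3 (siCyclin K#2). SLC39A7, which releases zinc from the endoplasmic reticulum and Golgi, had nearly equal levels with both siRNAs and levels above every scrambled library, at 2.12 and 2.17 times the scrambled mean. Over both siRNAs the log2 difference of SLC39A7 was 1.10 (standard error 0.05, adjusted p = 8.77e-07, limma). The direct difference between the siRNAs was -0.04 (standard error 0.04, adjusted p = 0.55). SLC39A14 reached 13.2, 12.5 and 13.1 FPKM in the scrambled, 28.2, 29.8 and 30.4 in the siCyclin K#1 and 21.8, 23.4 and 22.3 in the siCyclin K#2 libraries. SLC39A14 imports zinc, iron and manganese at the plasma membrane, and its siRNA libraries were all above the scrambled ones. Taken over both siRNAs, SLC39A14 was higher with a log2 difference of 0.99 (standard error 0.12, adjusted p = 0.000245, limma). SLC39A3, whose row also holds DIRAS1, rose from 3.27 to 4.97 and 3.83 FPKM (adjusted p = 0.0368), a call lost in 6 of 9 fits without 1 library and under both other scalings. The other 8 members of the ZIP family were not called over both siRNAs. The most abundant of them, SLC39A6, a plasma membrane importer, was at 36.4 FPKM with scrambled siRNA, 47.1 under siCyclin K#1 and 35.2 under siCyclin K#2. For SLC39A6 the log2 difference of the siRNAs, K#1 minus K#2, came to 0.42 with a standard error of 0.03 (adjusted p = 1.31e-05, limma). The importer SLC39A10 had means of 14.99, 7.87 and 15.7 FPKM in the scrambled, siCyclin K#1 and siCyclin K#2 groups, and fell under siCyclin K#1 (adjusted p = 6.21e-07). SLC39A10 had a direct log2 difference (siCyclin K#1 minus siCyclin K#2) of -0.99 (standard error 0.04, adjusted p = 1.51e-06, limma).

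In the SLC30 family, 1 of 7 members was higher and 1 lower over both siRNAs. SLC30A1 reached 19.8, 19.5 and 20.1 FPKM in the scrambled, 19.2, 18.96 and 20.1 in the siCyclin K#1 and 29.9, 29.9 and 27.97 in the siCyclin K#2 libraries. SLC30A1, the zinc exporter of the plasma membrane, was higher under siCyclin K#2 than in any other library. SLC30A1 had a direct log2 difference (siCyclin K#1 minus siCyclin K#2) of -0.59 (standard error 0.04, adjusted p = 1.43e-05, limma). Metallothioneins, which bind zinc in the cytosol, were summed beside it: they came to 161.5 to 168.0 FPKM with scrambled siRNA, 157.2 to 185.5 under siCyclin K#1 and 282.1 to 405.6 under siCyclin K#2, nearly all of it MT2A. Levels of SLC30A3 were 1.77, 2.27 and 1.69 FPKM (scrambled), 2.43, 2.65 and 3.13 (siCyclin K#1) and 1.15, 0.992 and 0.929 (siCyclin K#2). SLC30A3, a vesicular zinc transporter, was highest under siCyclin K#1 and lowest under siCyclin K#2, without overlap between these groups. SLC30A4, another vesicular zinc transporter, showed the same order (1.03, 1.83 and 0.839 FPKM in the scrambled, siCyclin K#1 and siCyclin K#2 groups), and passed the direct test too (adjusted p = 7.41e-05). SLC30A5, which loads zinc into the early secretory pathway, fell slightly from 13.6 to 12.4 and 10.9 FPKM (adjusted p = 0.0463, lost in 6 of 9 fits without 1 library), and the ubiquitous SLC30A9 rose slightly from 10.5 to 12.6 and 11.9 (adjusted p = 0.036, lost in 8 of 9 such fits and under both other scalings).

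**Figure D3:**
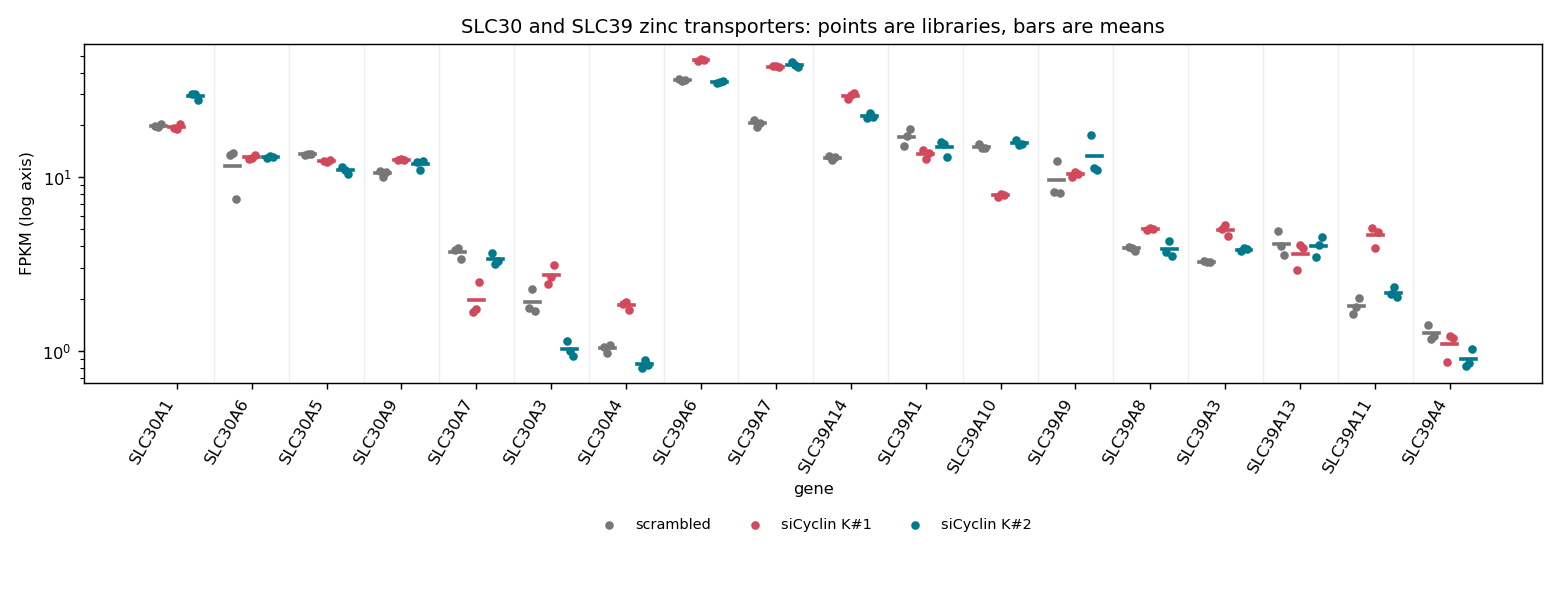
FPKM on a log axis (vertical) of the 7 SLC30 and 11 SLC39 members (horizontal, SLC30 first). Points are single libraries and bars are means of 3; SLC39A7 and SLC39A14 lie above scrambled in all 6 siCyclin K libraries, and SLC30A1 lies above it in the siCyclin K#2 libraries.

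The promoters of a zinc exporter that rose under siCyclin K#2 and of the ZIP member with the smallest adjusted p are shown as the sequence context of these genes. They are the 250 bases before the RefSeq start site on build GRCh38.p14, read 5′ to 3′ on the gene's strand. In SLC30A1 (chr1:211579162-211579411, minus strand) capitals mark a match to the core of the metal response element (TGCACNC or TGCGCNC, on either strand). In SLC39A7 (chr6:33200617-33200866, plus strand), which holds no such match, capitals mark a match to the antioxidant response element (TGACNNNGC, on either strand).
SLC30A1: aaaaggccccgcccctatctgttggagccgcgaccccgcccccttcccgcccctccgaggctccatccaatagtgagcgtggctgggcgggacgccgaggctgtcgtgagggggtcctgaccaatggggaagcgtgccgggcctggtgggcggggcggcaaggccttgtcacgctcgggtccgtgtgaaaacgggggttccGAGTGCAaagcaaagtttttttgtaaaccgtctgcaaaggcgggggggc
SLC39A7: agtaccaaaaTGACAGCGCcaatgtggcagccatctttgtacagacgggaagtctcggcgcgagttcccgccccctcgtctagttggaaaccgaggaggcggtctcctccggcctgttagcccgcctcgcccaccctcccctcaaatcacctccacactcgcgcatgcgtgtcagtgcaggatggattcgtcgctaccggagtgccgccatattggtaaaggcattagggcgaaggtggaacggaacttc
A match was found in 24.7% of the 27305 RefSeq promoters for the metal response core and in 11.0% for the antioxidant response element. Of the 133 members with a promoter in the table the shares were 28.6% and 15.0%. A match is a description of letters and not a binding site.

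Amino acid carriers were among the most abundant members. SLC7A5 (LAT1) exchanges large neutral amino acids and is held at the plasma membrane by SLC3A2, the heavy chain with which it forms a heterodimer. SLC7A5 was at 109.6, 112 and 112 FPKM in the scrambled group, 121, 115 and 120.2 under siCyclin K#1 and 217, 217 and 216 under siCyclin K#2. The siCyclin K#2 libraries were above all others. The siCyclin K#1 libraries were close to scrambled, with a log2 difference of 0.10 (adjusted p = 0.0157) that was -0.02 after median-ratio rescaling and 0.27 after quantile normalization (adjusted p = 0.587 and 2e-05). For SLC7A5 the log2 difference of the siRNAs, K#1 minus K#2, came to -0.86 with a standard error of 0.03 (adjusted p = 2.7e-07, limma). For SLC3A2 the FPKM was 39.9, 35.3 and 36.1 with scrambled siRNA, 30, 29.2 and 33.9 under siCyclin K#1 and 48.01, 45.8 and 49.8 under siCyclin K#2. SLC3A2 was lower under siCyclin K#1 and higher under siCyclin K#2 than with scrambled siRNA. For SLC3A2 the log2 difference of the siRNAs, K#1 minus K#2, came to -0.62 with a standard error of 0.07 (adjusted p = 0.000184, limma). The glutamine transporter SLC1A5 followed the order of SLC3A2, with means of 109, 87.2 and 127 FPKM in the scrambled, siCyclin K#1 and siCyclin K#2 groups (log2 differences -0.33 and 0.21 against scrambled, adjusted p = 0.00475 and 0.0444, limma). The siCyclin K#2 call of SLC1A5 was lost after median-ratio rescaling, without any 1 of the scrambled libraries, and without some of the siCyclin K libraries. SLC7A1 was at 14.5, 13.8 and 14.3 FPKM in the scrambled group, 9.41, 2.75 and 9.64 under siCyclin K#1 and 21.8, 21.4 and 21.9 under siCyclin K#2. SLC7A1, the main cationic amino acid importer, was higher in every siCyclin K#2 library than in every scrambled library and lower in every siCyclin K#1 library, with 1 siCyclin K#1 library far below the other 2. For SLC7A1 the log2 difference of the siRNAs, K#1 minus K#2, came to -1.76 with a standard error of 0.40 (adjusted p = 0.0108, limma). Without siCyclin K#1 replicate 2 this difference was -1.18 (adjusted p = 3.39e-06). For SLC43A2 the FPKM was 1.71, 2.11 and 1.91 with scrambled siRNA, 2.38, 2.37 and 2.35 under siCyclin K#1 and 0.824, 0.715 and 0.746 under siCyclin K#2. SLC43A2, a facilitative transporter of neutral amino acids, was lowest under siCyclin K#2. For SLC43A2 the log2 difference of the siRNAs, K#1 minus K#2, came to 1.52 with a standard error of 0.10 (adjusted p = 1.14e-05, limma). None of the 4 members of family 7 was called over both siRNAs.

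Other carriers of amino acids were called over both siRNAs together. SLC6A8 was at 1.02, 1.502 and 1.31 FPKM in the scrambled group, 2.52, 2.47 and 2.92 under siCyclin K#1 and 2.31, 3.04 and 2.203 under siCyclin K#2. SLC6A8, the creatine transporter, was above scrambled in all 6 siRNA libraries. Taken over both siRNAs, SLC6A8 was higher with a log2 difference of 0.97 (standard error 0.15, adjusted p = 0.000945, limma). SLC3A1, the heavy chain of the cystine and dibasic amino acid transporter, rose from 1.12 to 2.04 and 2.11 FPKM, and the glutamate transporter SLC1A1 from 4.09 to 6.23 and 5.42 (adjusted p = 0.00227 and 0.00268). In family 38, the sodium-coupled neutral amino acid transporters, SLC38A2, SLC38A6 and SLC38A7 were higher and SLC38A1 was lower. SLC38A2 had means of 56.97 ± 0.722, 68.7 ± 2.04 and 64.5 ± 1.18 FPKM (SD, n = 3 each) in the scrambled, siCyclin K#1 and siCyclin K#2 groups. SLC38A1 had means of 21.6 ± 0.435, 16.1 ± 0.525 and 17.4 ± 0.654 FPKM (SD, n = 3 each) in the scrambled, siCyclin K#1 and siCyclin K#2 groups. The call of SLC38A2 was lost after median-ratio rescaling and that of SLC38A7 after quantile normalization and in 5 of 9 fits without 1 library. The changes of SLC38A2 and SLC38A1 were small, with log2 differences of 0.23 and -0.37 (adjusted p = 0.00844 and 0.00172). SLC6A15, a transporter of branched-chain amino acids and proline, fell from 5.92 to 3.62 and 4.7 FPKM, and SLC43A1 from 2.76 to 2.15 and 1.74 (adjusted p = 0.0186 and 0.0126). For SLC6A6 the FPKM was 22.3, 23.4 and 84.8 with scrambled siRNA, 21.7, 80.4 and 21.9 under siCyclin K#1 and 32.8, 31.5 and 32.7 under siCyclin K#2. The libraries of SLC6A6, the taurine transporter, disagreed within groups, with 1 scrambled and 1 siCyclin K#1 library far above the others of their group, and no difference was called (log2 difference -0.10, adjusted p = 0.91).

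The promoters of SLC7A5 and SLC3A2, the paired subunits, are shown because their levels changed in the same direction between the siRNAs, with the siCyclin K#2 group highest. Both are the 250 bases before the RefSeq start site on GRCh38.p14. In SLC7A5 (chr16:87869508-87869757, minus strand) capitals mark 2 overlapping matches, 1 on each strand, to the core of the hypoxia response element (ACGTG, on either strand). In SLC3A2 (chr11:62881449-62881698, plus strand) capitals mark a match to the antioxidant response element.
SLC7A5: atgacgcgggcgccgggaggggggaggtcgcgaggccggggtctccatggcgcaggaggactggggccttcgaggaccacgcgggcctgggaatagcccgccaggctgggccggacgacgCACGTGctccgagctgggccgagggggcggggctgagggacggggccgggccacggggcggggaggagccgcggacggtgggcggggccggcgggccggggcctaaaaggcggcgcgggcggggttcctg
SLC3A2: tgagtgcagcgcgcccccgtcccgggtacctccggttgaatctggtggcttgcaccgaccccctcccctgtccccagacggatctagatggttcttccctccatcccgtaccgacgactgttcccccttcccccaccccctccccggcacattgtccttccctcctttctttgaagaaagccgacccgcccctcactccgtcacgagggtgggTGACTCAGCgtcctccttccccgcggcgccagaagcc
The letters ACGTG were in 18.7% of all these promoters and in 21.8% of those of the members. The amino acid response element (TGATGNAA, on either strand) was in neither of these windows, and it was in 3.2% of all promoters and 2.3% of those of the members.

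**Figure D4:**
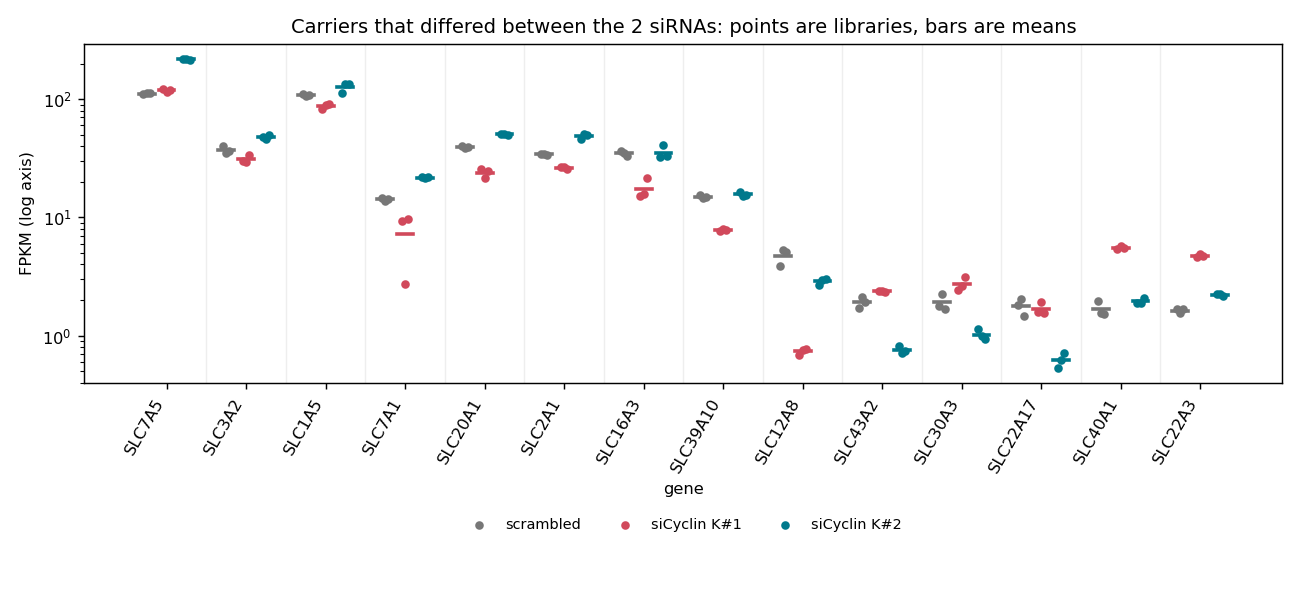
FPKM on a log axis (vertical) of 14 members that differed between the siRNAs (horizontal). Points are single libraries and bars are means of 3. From SLC7A5 to SLC12A8 the siCyclin K#1 mean is below the siCyclin K#2 mean, and from SLC43A2 to SLC22A3 it is above.

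For sugars and their products, the glucose transporters and the monocarboxylate transporters were read together. SLC2A1 (GLUT1) shares its row with AC099795.1. Levels of SLC2A1 were 34.3, 34.6 and 33.4 FPKM (scrambled), 26.8, 26.6 and 25.7 (siCyclin K#1) and 46.1, 50.8 and 49.7 (siCyclin K#2). It was below scrambled in every siCyclin K#1 library and above in every siCyclin K#2 library. SLC2A1 had a direct log2 difference (siCyclin K#1 minus siCyclin K#2) of -0.89 (standard error 0.04, adjusted p = 1.85e-06, limma). SLC2A3 reached 8.27, 8.78 and 8.49 FPKM in the scrambled, 12.9, 15.3 and 25.2 in the siCyclin K#1 and 11.8, 15.01 and 13.5 in the siCyclin K#2 libraries. SLC2A3 (GLUT3) was above scrambled with both siRNAs. Its log2 difference over both siRNAs was 0.82 with a standard error of 0.20 (adjusted p = 0.0129, limma). Levels of SLC2A6 were 2.77, 2.91 and 2.67 FPKM (scrambled), 1.09, 0.613 and 1.05 (siCyclin K#1) and 0.87, 1.07 and 1.24 (siCyclin K#2). SLC2A6 (GLUT6), a lysosomal family member, was below scrambled in all 6 siRNA libraries, at 33% and 38.1% of the scrambled mean. Over both siRNAs the log2 difference of SLC2A6 was -1.43 (standard error 0.19, adjusted p = 0.000389, limma). SLC2A13, the proton-myo-inositol cotransporter, rose from 1.55 to 2.23 and 1.87 FPKM (adjusted p = 0.0429), a call lost in 7 of 9 fits without 1 library and under both other scalings. The row of SLC2A11 is shared with MIF and fell from 29.02 to 19.96 and 23.1 (adjusted p = 0.00276). SLC45A3, a member of the family of proton-sugar cotransporters, fell from 2.29 to 1.11 and 1.44 (adjusted p = 0.00233).

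Lactate and pyruvate leave and enter through SLC16A1 (MCT1) and SLC16A3 (MCT4). SLC16A3 reached 36.3, 35.1 and 32.8 FPKM in the scrambled, 15.2, 15.9 and 21.5 in the siCyclin K#1 and 32.3, 40.8 and 33.02 in the siCyclin K#2 libraries. SLC16A3 was lower in every siCyclin K#1 library than in every other library, and the siCyclin K#2 libraries overlapped scrambled. SLC16A3 had a direct log2 difference (siCyclin K#1 minus siCyclin K#2) of -1.02 (standard error 0.14, adjusted p = 0.000593, limma). SLC16A1 fell slightly from 27.5 to 23.2 and 21.2 FPKM over both siRNAs (adjusted p = 0.0262). SLC16A13 fell from 4.21 to 2.84 and 2.44 FPKM, and SLC13A3, a dicarboxylate transporter whose row also holds TP53RK, from 3.82 to 2.47 and 2.77 (adjusted p = 0.00186 and 0.00248). Of the accessory proteins, BSG, which brings MCT1 and MCT4 to the membrane, rose from 100.0 to 111.4 and 120.7 FPKM, and EMB, its relative, from 4.80 to 9.84 and 7.62 (adjusted p = 0.028 and 0.0012, limma). Of 11 genes for accessory subunits and trafficking, 3 were higher and none lower, beside 17.0% and 11.5% of all genes tested.

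Family 25 carries metabolites, nucleotides and cofactors across the inner mitochondrial membrane, and with 35 members it is the largest here. Levels of SLC25A11 were 24.4, 24.5 and 24.01 FPKM (scrambled), 8.57, 7.76 and 9.095 (siCyclin K#1) and 11.2, 11.98 and 12.8 (siCyclin K#2). SLC25A11, the oxoglutarate/malate carrier of the malate-aspartate shuttle, was below scrambled in all 6 siRNA libraries, at 34.8% and 49.3% of the scrambled mean; the gene lies at chr17:4937130-4940251 of GRCh38 on the minus strand. Its log2 difference over both siRNAs was -1.26 with a standard error of 0.15 (adjusted p = 0.000253, limma). The aspartate/glutamate carriers of the same shuttle went the other way, with SLC25A12 rising from 6.26 to 10.2 and 9.36 FPKM and SLC25A13 from 13.1 to 20.01 and 18.4 (adjusted p = 0.000129 and 0.00132). SLC25A42 reached 0.432, 0.528 and 0.484 FPKM in the scrambled, 1.94, 2.09 and 1.81 in the siCyclin K#1 and 1.29, 1.46 and 1.17 in the siCyclin K#2 libraries. SLC25A42, which imports coenzyme A, had the largest rise in the family, from less than 1 FPKM in each scrambled library. The log2 difference over both siRNAs was 1.54. The carnitine/acylcarnitine carrier SLC25A20 rose from 2.98 to 6.12 and 4.39 FPKM, the ornithine carrier SLC25A15 from 3.27 to 4.66 and 5.57, and SLC25A44, a carrier of branched-chain amino acids, from 5.97 to 7.93 and 8.398 (adjusted p = 0.0152, 0.0288 and 0.00201). The call of SLC25A15 was lost under both other scalings. Among the 8 lower members were the glutamate carrier SLC25A22, at 12.8, 9.48 and 10.2 FPKM in the scrambled, siCyclin K#1 and siCyclin K#2 groups, and SLC25A39, which carries glutathione, at 25.97, 22.1 and 19.5 (adjusted p = 0.00262 and 0.0106). The mitochondrial iron importer SLC25A37 fell from 10.8 to 6.74 and 6.93 although its libraries overlapped (adjusted p = 0.0166), while its paralog SLC25A28 did not pass (log2 difference -0.01). The pyrimidine nucleotide carriers SLC25A33 and SLC25A36 fell with log2 differences of -0.35 and -0.34 (adjusted p = 0.0121 and 0.0161).

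The ADP/ATP carriers of family 25 include its most abundant members. For SLC25A5 the FPKM was 382, 359.7 and 381 with scrambled siRNA, 319, 314 and 261 under siCyclin K#1 and 416, 416 and 409.8 under siCyclin K#2. Every SLC25A5 library was below scrambled under siCyclin K#1 (adjusted p = 0.00392) and above it under siCyclin K#2, where the test did not pass (adjusted p = 0.15). For SLC25A5 the log2 difference of the siRNAs, K#1 minus K#2, came to -0.48 with a standard error of 0.07 (adjusted p = 0.000975, limma). SLC25A6 fell from 63.2 to 48.99 and 48.3 FPKM (adjusted p = 0.0326, lost in 4 of 9 fits without 1 library) with overlapping libraries, and SLC25A4, the third ADP/ATP carrier, was at 5.44, 6.61 and 4.24 FPKM in the scrambled, siCyclin K#1 and siCyclin K#2 groups. The phosphate carrier SLC25A3, on a row with SNORA53, was at 59.5, 56.6 and 55.1 and was not called (adjusted p = 0.17). The row of SLC25A10 and MRPL12 fell from 43.1 to 27.1 and 35.5 (adjusted p = 0.0145). Of the mitochondrial carriers outside the naming rule, UCP2, an uncoupling protein of the same structural family, had the largest fall of the list of other carriers, from 12.8 to 2.23 and 2.80 FPKM (log2 difference -2.31, adjusted p = 1.45e-06, limma).

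**Figure D5:**
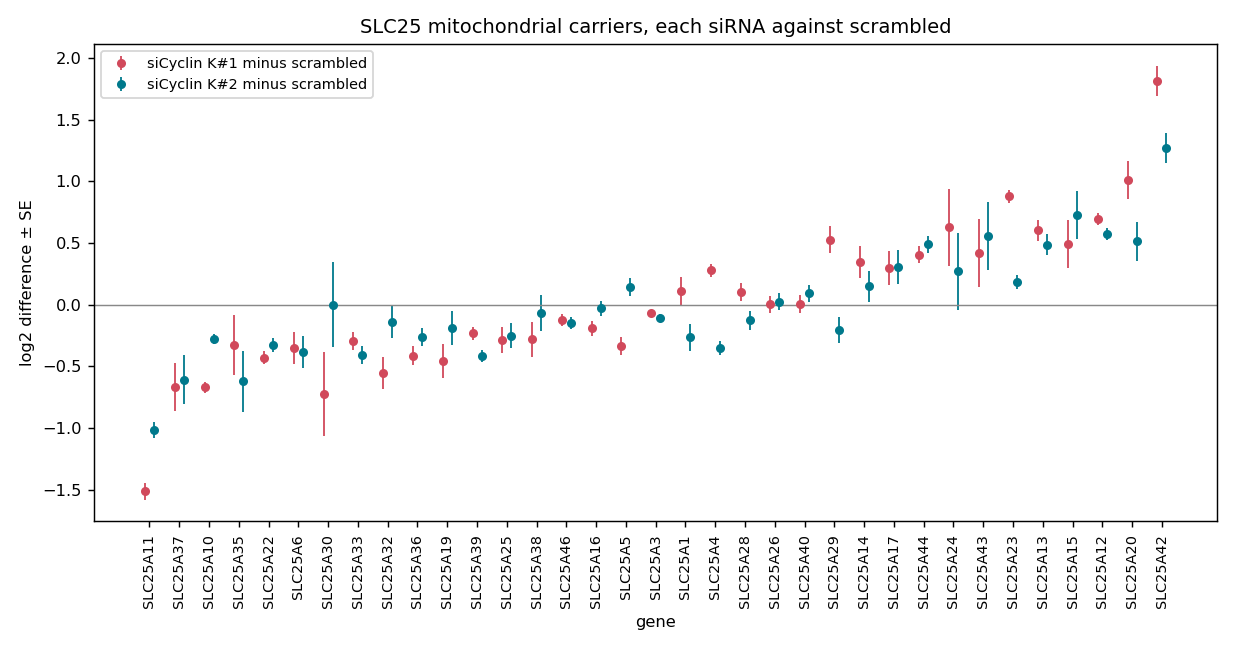
Log2 difference against scrambled (vertical, on log2(FPKM + 0.1)) of the 35 members of family 25 (horizontal, ordered by the difference over both siRNAs) under siCyclin K#1 in red and siCyclin K#2 in blue; bars are standard errors from limma with 3 libraries a group. SLC25A11 is at the lower end and SLC25A42 at the upper end with both siRNAs, which share the scrambled libraries.

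Of the vitamin and heme carriers, SLC46A1, the proton-coupled folate transporter, and SLC23A2, a vitamin C transporter, changed in opposite directions. SLC46A1 was at 4.41, 4.14 and 4.26 FPKM in the scrambled group, 2.59, 2.12 and 2.05 under siCyclin K#1 and 1.63, 1.94 and 1.83 under siCyclin K#2. SLC46A1 was below scrambled in all 6 siRNA libraries. Over both siRNAs the log2 difference of SLC46A1 was -1.05 (standard error 0.13, adjusted p = 0.000308, limma). SLC23A2 had means of 14.6 ± 0.607, 23.7 ± 1.596 and 21.2 ± 0.654 FPKM (SD, n = 3 each) in the scrambled, siCyclin K#1 and siCyclin K#2 groups. Its log2 difference over both siRNAs was 0.62 with a standard error of 0.07 (adjusted p = 0.000229, limma). The thiamine transporters SLC19A2 and SLC19A3 and the reduced folate carrier SLC19A1 did not pass (log2 differences -0.43, 0.19 and 0.12).

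Of the carriers of other metals, none of 6 members was called over both siRNAs. Levels of SLC40A1 were 1.98, 1.54 and 1.52 FPKM (scrambled), 5.42, 5.73 and 5.55 (siCyclin K#1) and 1.904, 1.898 and 2.095 (siCyclin K#2). SLC40A1 is ferroportin, the exporter of iron, and its siCyclin K#1 libraries were at 3.32 times the scrambled mean, while those of siCyclin K#2 overlapped scrambled. SLC40A1 had a direct log2 difference (siCyclin K#1 minus siCyclin K#2) of 1.46 (standard error 0.10, adjusted p = 1.77e-05, limma). The copper importer SLC31A1 was at 16.3, 12.8 and 14.9 FPKM in the scrambled, siCyclin K#1 and siCyclin K#2 groups (log2 difference -0.24, adjusted p = 0.051), and the iron importer SLC11A2 at 7.79, 8.26 and 10.1 (adjusted p = 0.417). With each siRNA alone SLC31A1 was called lower (adjusted p = 0.00014 for siCyclin K#1 and 0.0386 for siCyclin K#2, limma). Its siCyclin K#2 call was lost in several fits without 1 library, among them those without scrambled replicate 1 and replicate 3. SLC20A1 reached 39.9, 38.6 and 39.8 FPKM in the scrambled, 25.5, 21.7 and 24.5 in the siCyclin K#1 and 50.5, 50.5 and 50.2 in the siCyclin K#2 libraries. SLC20A1, a phosphate importer, was lower than scrambled under siCyclin K#1 and higher under siCyclin K#2 in every library. SLC20A1 had a direct log2 difference (siCyclin K#1 minus siCyclin K#2) of -1.08 (standard error 0.05, adjusted p = 2.67e-06, limma). Its paralog SLC20A2 was at 1.89, 4.64 and 2.43 FPKM in the scrambled, siCyclin K#1 and siCyclin K#2 groups, so that under siCyclin K#1 the paralogs lay on different sides of scrambled (log2 differences -0.72 and 1.25, adjusted p = 8.42e-06 and 6.47e-06). SLC17A5, the lysosomal exporter of sialic acid, rose from 4.08 to 5.24 and 5.67 (adjusted p = 0.00999, lost after quantile normalization).

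The organic cation carriers held members of both directions. SLC22A3 was at 1.67, 1.55 and 1.67 FPKM in the scrambled group, 4.65, 4.89 and 4.71 under siCyclin K#1 and 2.26, 2.25 and 2.15 under siCyclin K#2. SLC22A3, an organic cation transporter, was higher under siCyclin K#1 than under siCyclin K#2, and both groups were above scrambled. For SLC22A3 the log2 difference of the siRNAs, K#1 minus K#2, came to 1.07 with a standard error of 0.07 (adjusted p = 7.87e-06, limma). SLC22A18 rose from 1.85 to 3.35 and 3.097 FPKM and the ergothioneine transporter SLC22A4 from 1.19 to 1.71 and 1.57 (adjusted p = 0.000217 and 0.0195). SLC22A17, a receptor for lipocalin 2, was at 1.78, 1.69 and 0.628 in the scrambled, siCyclin K#1 and siCyclin K#2 groups. Its direct log2 difference was 1.299 (standard error 0.15, adjusted p = 0.000299, limma). The call over both siRNAs was lost in 6 of 9 fits without 1 library for each of SLC22A3 and SLC47A1, and quantile normalization lost those of SLC22A3 and SLC22A4. The exporter SLC47A1 (MATE1) fell from 7.07 to 4.03 and 4.91 with overlapping libraries (adjusted p = 0.044), and SLC10A3, the most abundant of the group with scrambled siRNA at 7.28 FPKM, did not pass (adjusted p = 0.501). The equilibrative nucleoside transporter SLC29A1 rose slightly from 12.99 to 15.04 and 14.9 and SLC29A4 from 2.91 to 4.38 and 4.202, whereas SLC29A2 and SLC29A3 were not called (adjusted p = 0.0348, 0.00126, 0.221 and 0.981). The call of SLC29A1 was lost in 7 of 9 fits without 1 library and under both other scalings. In the Golgi and endoplasmic reticulum, SLC35A4, the most abundant member of the nucleotide sugar group, was at 24.7, 31.6 and 23.5 FPKM in the scrambled, siCyclin K#1 and siCyclin K#2 groups (adjusted p = 0.522 over both siRNAs). In the sugar phosphate family SLC37A3 rose from 2.26 to 3.76 and 3.21 and SLC37A1 fell from 2.499 to 1.85 and 2.105 (adjusted p = 0.00246 and 0.0358, the second lost in 6 of 9 fits without 1 library).

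The siRNAs were also compared with each other, 3 libraries against 3, a comparison without the scrambled libraries in its contrast. At an adjusted p under 0.05, 39 members (23.6%) were higher and 32 (19.4%) lower under siCyclin K#1 than under siCyclin K#2, beside 17.1% and 12.3% of all genes tested and 23.7% and 20.8% of those whose mean FPKM was at least 1. Of the called members 54.9% were higher under siCyclin K#1, and 42.3% after median-ratio rescaling. The fold rule called 2 members, SLC12A8 and SLC7A1, beside 1.01% of genes whose mean FPKM was at least 1. The members lower under siCyclin K#1 included the abundant importers SLC7A5, SLC1A5, SLC3A2, SLC2A1 and SLC20A1. Against scrambled, 64 members were called in the same direction with each siRNA, 39 higher and 25 lower. Another 5 were called lower under siCyclin K#1 and higher under siCyclin K#2, which were SLC1A5, SLC3A2, SLC2A1, SLC20A1 and SLC45A1. The 3 called higher under siCyclin K#1 and lower under siCyclin K#2 were SLC43A2, SLC30A3 and SLC25A4. Median-ratio rescaling lost the siCyclin K#1 calls of these 3 and the siCyclin K#2 call of SLC1A5. Quantile normalization lost the siCyclin K#1 calls of SLC43A2 and SLC30A3 and the siCyclin K#2 call of SLC45A1. These counts share the scrambled libraries, and the matching shares over all genes were not counted. CCNK itself did not differ past the threshold between the siRNAs (adjusted p = 0.726).

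An siRNA can also pair with other mRNAs through positions 2 to 8 of its guide strand, its seed, most often in the 3′ UTR. The seed sites follow from the siRNA sequences in the study's methods and are GTGATAA for siCyclin K#1 and TACAGGT for siCyclin K#2. They were sought in the longest 3′ UTR that GENCODE 29 gives for each member, and 19 of 165 members held a site for siCyclin K#1. Of these, 8 were lower and 1 higher under siCyclin K#1 than under siCyclin K#2, with a median log2 difference of -0.16. Of the 146 members without the site, 24 were lower and 38 higher, with a median of 0.08. Against scrambled, 6 of the 19 were higher and 7 lower under siCyclin K#1, and of the 146, 54 were higher and 39 lower. Members with the site had longer 3′ UTRs, with a median of 4616 bases against 1532. For the siCyclin K#2 site the median direct difference was 0.01 over 24 members that held it and 0.04 over 141 that did not. Of these 24, 6 were lower and 3 higher under siCyclin K#1 than under siCyclin K#2, and of the 141, 26 were lower and 36 higher. The part of seed pairing in these differences was not tested. Sites of siCyclin K#1 are printed in capitals within 30 bases of the UTR, read 5′ to 3′ on the mRNA strand, for 3 members that were lower under siCyclin K#1 than under siCyclin K#2 and for SLC25A4, which was higher. They lie at chr2:195735232-195735261, chr1:100976144-100976173, chr1:8344123-8344152 and chr4:185147490-185147519 of GRCh38, each on the plus strand, in the order printed.
SLC39A10: atataaagcttGTGATAAagagaggagaat
SLC30A7: ctactgtatctGTGATAAactttcctatat
SLC45A1: aatgtaaatatGTGATAAaataataaatga
SLC25A4: taggctagaaaGTGATAAtggctttcataa
SLC39A10 was at 7.87 FPKM under siCyclin K#1 and 15.7 under siCyclin K#2, SLC30A7, a zinc transporter of the Golgi, at 1.97 and 3.38, SLC45A1, a proton-sugar cotransporter, at 1.06 and 2.298, and SLC25A4 at 6.61 and 4.24. A site was thus present in members of either direction, and SLC30A7 also held 3 sites for siCyclin K#2.

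Genes that work with the carriers but fall outside the naming rule were counted in the same fit. In that fit 17.0% of all genes tested were higher and 11.5% lower. Over the genes whose mean FPKM was at least 1 the shares were 25.2% and 16.9%. No test was run on the lists. Of 23 tested subunits of the vacuolar proton pump, which drives many lysosomal carriers, 5 were higher and 1 lower over both siRNAs. ATP6V1G1 rose from 36.3 to 59.1 and 48.5 FPKM and ATP6V1E1 fell from 25.0 to 14.2 and 19.6 (adjusted p = 0.0018 and 0.0332, limma). Of 32 other carriers tested, mainly the SLCO family, the lettered SLC35 subfamilies and carriers with other names, 5 were higher and 11 lower. SLC35F2 fell from 31.8 to 19.1 and 22.4 FPKM, and the lysolipid transporter MFSD2A from 1.94 to 0.498 and 0.929 (adjusted p = 0.000361 and 0.00332, limma).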

How the data were processed

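RNA of A549 cells was sequenced as 3 libraries each with scrambled siRNA, siCyclin K#1 and siCyclin K#2, grouped by the sample labels. The deposited values are FPKM of every feature, which the authors computed with StringTie 1.3.3b from paired reads. The aligner and the annotation release are not given in the sources used here. The files hold 56252 features, and 25125 without a reference gene were left out. Rows of the same gene were summed, which gave 31080 genes.

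Depth was estimated from the FPKM steps that 1 read is worth given GENCODE 29 exon lengths, and 94.32% of nonzero values under 200 reads came out whole to within 0.05 reads. For the 132 members with an estimate, the lowest library held 626.5 reads in the median and 30 at least. Replicates were not duplicates (chi-square of 13.4 to 18.73 per degree of freedom over 9 pairs).

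Genes that reached 0.1 FPKM in 3 or more libraries entered limma 3.58.1 (R 4.3.3) as log2(FPKM + 0.1) (eBayes with trend, Benjamini-Hochberg adjustment over 21048 genes). A fit of 2 groups compared the 6 siCyclin K libraries with scrambled; a fit of 3 groups gave the contrasts of single siRNAs and the direct one between them. Calls were an adjusted p under 0.05, or a fold change over 3 with p under 0.01, the thresholds of the study's volcano plot. Exact permutation tests used scipy 1.17.1. On simulated data for both siRNAs against scrambled (21048 genes), the test found 183 of 200 changed genes and called 14 that had not been changed. Its recovery of genes whose levels also differ between the siRNAs was not tested. The members and gene lists were chosen with earlier results of these data known. One rule named the members described: those past the fold rule, the 10 largest rises and 10 largest falls that were called without overlap, the 8 largest differences between the siRNAs, the 10 highest scrambled levels, for each substrate group of at least 3 members the highest scrambled level and the largest called rise and fall over both siRNAs, and the 3 members just above and 3 genes just below 1 FPKM. Other members were chosen after their values were seen, for their role. SLC19A1 lies on 2 rows, which were summed. Of the members 15 share a feature with another gene, so that their values cannot be separated, and some genes are not reported here. GENCODE 29 gave the same coordinates for 163 members. Promoters come from RefSeq (GRCh38.p14).

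Alternatives were other pseudocounts, filters, scalings, call rules, member thresholds, eBayes without trend, a replicate block, 3 groups in the fit, and leaving out each library.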

Additional observations from a re-analysis of the deposited data

Results flagged for a closer look

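The siRNAs are meant to act through the same target, so a member is listed here when the direct test between them, siCyclin K#1 minus siCyclin K#2, had an adjusted p under 0.05 (limma). Of the members named by the rule, 30 are listed. The values are log2 differences. Lower with siCyclin K#1 were SLC12A8 (-1.83), SLC7A1 (-1.76), SLC20A1 (-1.08), SLC4A8 (-1.06), SLC16A3 (-1.02), SLC2A1 (-0.89), SLC7A5 (-0.86), SLC3A2 (-0.62), SLC1A5 (-0.54), SLC25A11 (-0.50), SLC25A5 (-0.48), SLC12A2 (-0.44), SLC25A10 (-0.39), SLC6A15 (-0.37), SLC4A2 (-0.36), SLC45A3 (-0.34) and SLC31A1 (-0.22). Higher with siCyclin K#1 were SLC43A2 (1.52), SLC40A1 (1.46), SLC30A3 (1.33), SLC22A17 (1.299), SLC22A3 (1.07), SLC25A42 (0.54), SLC35A4 (0.43), SLC39A6 (0.42), SLC44A2 (0.41), SLC39A14 (0.39), SLC26A6 (0.30), SLC4A5 (0.27) and SLC30A5 (0.18). The groups hold 3 libraries each, and no exact test of 3 against 3 can go below p = 0.1. The causes of these differences were not tested.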

How the results depend on the processing

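Of the log2 differences of the 55 named members, none reversed past the threshold under any alternative, and 1887 values stayed on their side of it, 110 lost the call and 38 gained it. Of 33 named members called over both siRNAs, 19 kept the call whichever library was left out. Leaving out 1 library at a time gave 24 to 38 members higher and 16 to 29 lower over both siRNAs (37 and 26 with all), 53 to 61 and 38 to 47 with siCyclin K#1, 43 to 54 and 31 to 36 with siCyclin K#2, and 31 to 37 and 28 to 32 between the siRNAs. The fold rule then called 0 to 3, 4 to 6, 1 and 1 to 3 members. The lowest counts over both siRNAs came without scrambled replicate 2 (24 higher, 16 lower) and scrambled replicate 1 (16 lower). With 3 groups in the fit, 56 members were higher, 47 lower and 2 past the fold rule over both siRNAs. Shares of called genes over all genes were not counted for the alternatives. The fold rule called 0, 1, 0 and 1 members (both siRNAs, siCyclin K#1, siCyclin K#2, between siRNAs) with a pseudocount of 0.5 and the same with 1. It called 0 over both siRNAs after median-ratio rescaling and quantile normalization, and 8, 18, 10 and 13 at a fold of 2. For members by a scrambled mean of at least 1 it called 0 over both siRNAs and 2 with siCyclin K#1. Members by a mean FPKM of at least 3 (111 genes) gave 0, 1, 0 and 1 by the fold rule, 39 higher with siCyclin K#1 and 22 higher between the siRNAs; fewer members enter. Quantile normalization moved the median log2 difference of all genes with siCyclin K#1 from 0.102 to -0.019. The replicate numbers do not pair the libraries (mean correlation of deviations -0.00585 over 9 pairs). With a replicate block 29 members were higher and 22 lower over both siRNAs, 58 and 41 with siCyclin K#1, 50 and 33 with siCyclin K#2, and 36 and 30 between the siRNAs. Where no reason is given, the cause was not tested. Depth limits members near 1 FPKM most.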

Other observations

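The libraries of 6 members differed widely within a group, with a coefficient of variation over 50% in at least 1 group. They were SLC6A6 (82.3%), SLC9A3 (77.4%), SLC7A6 (63.5%), SLC7A1 (53.9%), SLC7A2 (53.1%) and SLC35A5 (50.6%), while the median over members of the largest coefficient in any group was 10.6%. SLC9A3, the sodium-proton exchanger of the brush border, was at 1.63, 0.140 and 1.21 FPKM in the scrambled libraries. SLC7A6, a y+L amino acid transporter, was at 12.7, 3.83 and 5.62 FPKM with siCyclin K#1 and at 8.03, 6.23 and 2.87 with siCyclin K#2. SLC7A2, a cationic amino acid transporter, was at 3.12, 2.56 and 6.45 FPKM with scrambled siRNA, at 5.08, 17.7 and 16.4 with siCyclin K#1 and at 3.38, 7.94 and 3.62 with siCyclin K#2. None of the 6 was called over both siRNAs. With siCyclin K#1 against scrambled SLC7A2 was called higher and SLC7A1 lower (adjusted p = 0.0441 and 0.0451, limma), and each call was lost in 6 of 9 fits without 1 library, that of SLC7A2 also under both other scalings.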
